A study of Mus musculus with 2 samples.

Results

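CpG-poor promoters that are open were examined in the whole ovary of aged mice. The assay, DNase-seq, sequences the ends left where the enzyme DNase I cuts accessible DNA. A promoter was counted as CpG-poor when the window of 500 bp either side of the annotated 5′ end of a protein-coding gene of the GENCODE M21 annotation had an observed to expected CpG ratio under 0.35 in mouse build mm10. The ratio is the CpG count times the window length, divided by the product of the C and G counts. It was counted as open when a peak of the longer deposited peak list lay within 500 bp of that end in both libraries. The 717 members were therefore selected on the peaks themselves, and their openness is a description that was not tested. They are 717 of 7469 CpG-poor 5′ ends and of 20807 autosomal protein-coding 5′ ends in all. A further 350 CpG-poor ends had a peak in 1 library, and 6402 had none in either and are called closed here.

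The study holds 1 group of 2 libraries, replicates 1 and 2, from ovaries of B6CASTF1/J females of 18 to 20 months, the F1 cross of the C57BL/6 and CAST strains. No treatment and no second genotype is named in the labels. Both libraries carry separate biosample entries under 1 donor entry, and the labels do not say whether they came from different animals, so the spread between them may be technical. With a single group no test between groups was possible, and no p-value is given. The longer lists held 95898 peaks in replicate 1 and 83982 in replicate 2, and the read depth of each library is unknown from the files. In whole tissue, fewer cells of a type and less open DNA per cell cannot be told apart.

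Most mammalian promoters lie in CpG islands, which are open in most tissues, while CpG-poor promoters are known mainly from genes used in particular cell types. Such promoters are often described as having a TATA box and a focused start, and as opening where tissue-specific transcription factors bind. In the ovary, granulosa cells surround the oocyte, theca and other steroidogenic cells make androgens and progestins, and stroma, vessels and immune cells fill the rest. NR5A receptors, among them the product of Nr5a1, bind promoters of steroidogenic genes, and CTCF is an architectural factor that leaves a clear footprint.

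Sequences of 8 members are shown first because the results turn on their open bases. Gstm7, Cyp4f13, Pold4, Aldh3b1 and Tpcn2 were among the 15 strongest members with a peak over the start in both libraries. Star, Inha and Nr5a1, the strongest members of the gonadal lists, were chosen for printing after their values were seen. Each run is the part shared by the strongest peaks of both libraries, at most 250 bases before the start and 30 after it, 5′ to 3′ on the gene's strand, in the C57BL/6 reference letters of mm10. Capitals mark bases inside footprints of both libraries, which are short stretches protected from cutting within an open site. For Gstm7 the run is chr3:107931788-107931920, minus strand. For Cyp4f13 the run is chr17:32947381-32947560, minus strand. For Pold4 the run is chr19:4231741-4231928, plus strand. For Aldh3b1 the run is chr19:3929779-3929920, minus strand. For Tpcn2 the run is chr7:145283982-145284100, minus strand. For Star the run is chr8:25806305-25806540, plus strand. For Inha the run is chr1:75506981-75507106, plus strand. For Nr5a1 the run is chr2:38714513-38714640, minus strand.
Gstm7: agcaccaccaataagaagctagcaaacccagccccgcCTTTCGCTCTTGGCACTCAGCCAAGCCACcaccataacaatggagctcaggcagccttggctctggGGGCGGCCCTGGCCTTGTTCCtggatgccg
Cyp4f13: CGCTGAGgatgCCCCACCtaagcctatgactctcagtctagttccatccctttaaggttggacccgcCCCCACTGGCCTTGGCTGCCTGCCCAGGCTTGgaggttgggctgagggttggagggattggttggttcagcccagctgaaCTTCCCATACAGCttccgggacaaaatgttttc
Pold4: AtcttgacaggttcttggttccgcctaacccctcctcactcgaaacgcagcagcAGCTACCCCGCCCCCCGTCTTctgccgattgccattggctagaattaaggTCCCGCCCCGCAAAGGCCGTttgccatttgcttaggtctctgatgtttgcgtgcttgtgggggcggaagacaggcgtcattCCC
Aldh3b1: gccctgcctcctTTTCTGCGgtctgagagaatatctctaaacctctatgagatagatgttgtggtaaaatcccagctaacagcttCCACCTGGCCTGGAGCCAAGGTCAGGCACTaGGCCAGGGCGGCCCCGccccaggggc
Tpcn2: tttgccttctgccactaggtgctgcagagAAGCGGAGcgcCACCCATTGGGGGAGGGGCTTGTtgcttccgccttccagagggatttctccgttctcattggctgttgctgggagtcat
Star: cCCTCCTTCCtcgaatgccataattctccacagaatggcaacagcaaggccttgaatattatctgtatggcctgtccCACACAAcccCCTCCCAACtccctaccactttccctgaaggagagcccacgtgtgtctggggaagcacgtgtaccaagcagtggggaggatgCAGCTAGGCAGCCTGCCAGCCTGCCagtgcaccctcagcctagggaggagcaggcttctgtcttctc
Inha: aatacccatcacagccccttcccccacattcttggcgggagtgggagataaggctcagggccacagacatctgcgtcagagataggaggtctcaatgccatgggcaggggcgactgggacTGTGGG
Nr5a1: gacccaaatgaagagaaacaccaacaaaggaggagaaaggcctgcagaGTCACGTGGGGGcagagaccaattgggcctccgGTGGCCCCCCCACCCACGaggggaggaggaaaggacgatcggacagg

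In Gstm7, a mu-class glutathione S-transferase, the first run of capitals holds the only palindromic NFI consensus found in a shared footprint of any member, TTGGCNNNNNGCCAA, which was found between 250 bases before the start and 50 after it at 0.139% of members and 0.024% of all ends. A second run, which begins at the annotated start, holds a GC box and an NR5A match side by side. Pold4, the small subunit of DNA polymerase delta, had a GC box in a shared footprint at position -97 (the start is +1) and another at -52. In Aldh3b1, an aldehyde dehydrogenase, an NR5A match lay in a shared footprint at -11. In Nr5a1, which encodes the steroidogenic receptor itself, the capitals hold the E-box CACGTG at -48. Star, the carrier of cholesterol into mitochondria, had that E-box at -126 and -108, both outside the capitals.

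Openness followed the CpG ratio closely. Of all autosomal 5′ ends 57.3% were open, against 9.6% of the CpG-poor ends and 84% of those at or above 0.35, called CpG-rich here. Within the CpG-poor range the share ran from 0.998% at ratios under 0.05 to 3.89% between 0.1 and 0.15, 12.5% between 0.2 and 0.25 and 28.4% between 0.3 and 0.35. The next bin, from 0.35 to 0.4, stood at 39.8%, so the threshold cuts a continuous slope. Just inside it were Mttp, the lipid transfer protein of lipoprotein assembly, at 0.3495 and Gstp2 at 0.3494, and just outside were Slc2a10 at 0.35002 and Syn3 at 0.3503. The lowest ratio was that of 4931408C20Rik, whose window holds 0 CpG and whose peak signal was 0.581 and 0.508. Olfr536 and Akr1c19 followed, with 1 CpG each.

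**Figure D1:**
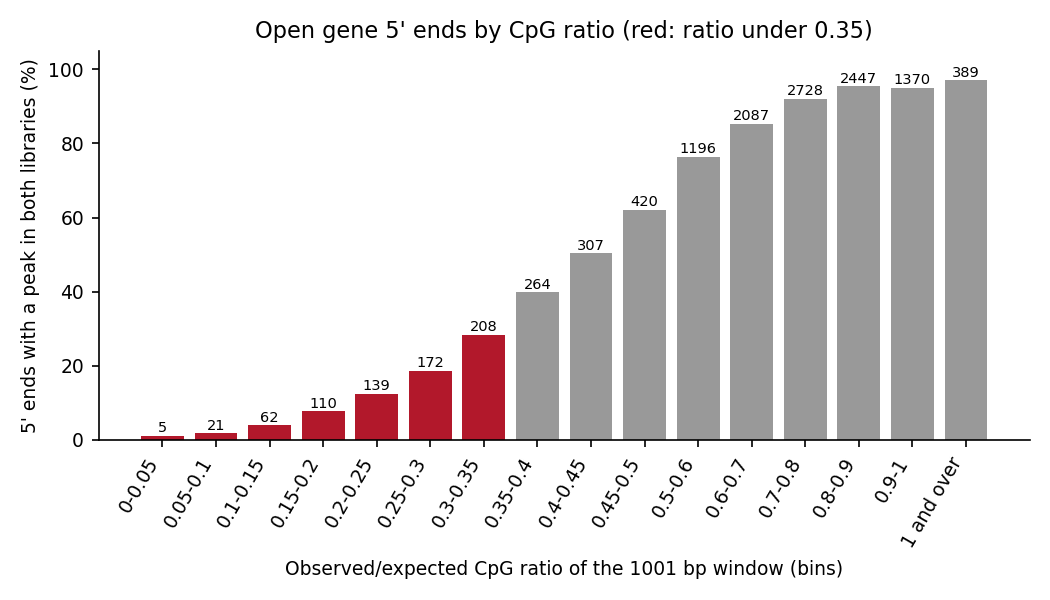
Share of autosomal protein-coding 5′ ends with a peak in both libraries (y axis, percent) by bin of the observed/expected CpG ratio (x axis), with the number of open ends above each bar. Red bars are the CpG-poor bins, which climb from 0.998% to 28.4%, and gray bars are the CpG-rich bins, which reach 97%.

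The base composition moved with openness as well. The median GC content of the window was 51.4% at members, 44.7% at closed CpG-poor ends and 59.8% at open CpG-rich ends. Among CpG-poor ends under 38% GC, 0.452% were open (6 of 1328), and among those at 56% or more, 26.5% (112 of 423). The part of GC content in the other differences between open and closed ends was not tested. By chromosome the share of CpG-poor ends that were open lay between 6.01% on chromosome 14 and 14.7% on chromosome 1, which held 64 members. Olfactory receptor genes are a large CpG-poor family, of which 5 of 1119 were members, and 0 of 327 vomeronasal receptor genes were.

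Peaks at members were weaker than those at CpG-rich promoters. The strength column of the deposited lists is called the signal here. No label or file names its unit; from its values it was read as scaled for depth, on which every comparison between the libraries rests. Each member has the value of its strongest peak in each library. In replicate 1 the signal of the 717 members ran from 0.226 to 14.8 with a median of 1.30, and in replicate 2 from 0.242 to 20.1 with a median of 1.21. At the 11208 open CpG-rich ends the medians were 4.31 and 4.44. The middle of the distributions differed far more than the peak widths, whose medians were 200 bp in both libraries at members and 220 bp at CpG-rich ends. In the shorter deposited lists, 72.7% of members still had a peak in both libraries, against 94% of open CpG-rich ends.

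The 15 strongest members included no gene of the ovarian cell type lists. Tef, a clock-output transcription factor, led with 12.2 in replicate 1 and 20.1 in replicate 2 (mean 16.1 ± 5.61, SD, n = 2). Its peak did not cover the annotated 5′ end and was centred about 199.5 bp downstream. Tldc1, which encodes a TLDc-domain protein, had 14.8 and 14.0, and Gstm7 had 11.2 and 17.7. These 3 stood above all other members in replicate 2. Ptms, which encodes the small nuclear protein parathymosin, followed with 8.21 and 12.3, and its strongest peak lay about 300 bp inside the gene, at 312.5 and 302.5 bp. Tmem176a and Tmem176b, neighbouring membrane protein genes on opposite strands, shared 1 peak with 8.95 and 9.71, over the annotated 5′ end of Tmem176b. Cyp4f13, of the fatty acid hydroxylase branch of cytochromes P450, had 11.3 and 8.68.

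The rest of the 15 strongest were spread over unrelated roles. The predicted gene Gm20449 had 7.94 and 9.42, Pold4 8.03 and 8.18, and Aldh3b1 7.57 and 7.32. Fcgrt, the heavy chain of the neonatal Fc receptor, had 5.90 and 8.39, and Ticam1, an adaptor of Toll-like receptors, had 5.09 and 9.12. Cish, an inhibitor of cytokine signalling, had 6.95 and 7.07, but its peak sat near further starts of the same gene that are CpG-rich. Amigo3, an adhesion protein gene, had 7.77 and 6.61, and Tpcn2, an endolysosomal cation channel gene, had 6.72 and 6.84. At the other end, Gbp10 had 0.226 and 0.289, Pi15 0.269 and 0.258, and Slc8a1, the sodium-calcium exchanger, 0.269 and 0.242. Gbp10, Gstm7, Gstm2 and Cyp4f13 belong to families with near-identical copies, so reads may map to several of them and their values are uncertain.

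Both libraries gave members similar signals, but the rule asked for a peak in both. It left out the 350 CpG-poor ends with a peak in 1 library, so these values do not measure agreement between the libraries. On the log2 scale the median ratio of replicate 2 to replicate 1 was 0.03, 375 of 717 members were higher in replicate 2 and 342 lower, and 95.1% lay within 2-fold. At open CpG-rich ends the median ratio was 0.11, 61.7% were higher in replicate 2, and 98.4% lay within 2-fold. The strongest peaks of both libraries overlapped at 702 members. Among the extremes, Acsm5, a medium-chain acyl-CoA synthetase gene, had 1.77 in replicate 1 and 0.414 in replicate 2, and Trim69 had 2.77 and 0.852. Olfml3 had 4.05 and 1.26, but its strongest peaks lay at different places in both libraries. Aldh1a1, a retinaldehyde dehydrogenase gene, was the highest in replicate 2 relative to replicate 1, with 0.388 and 1.20, and its strongest peaks also did not overlap. Fam92b had 1.60 and 4.79, and Ttll10 0.667 and 1.72. A ratio of 2 libraries has no replicate error.

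**Figure D2:**
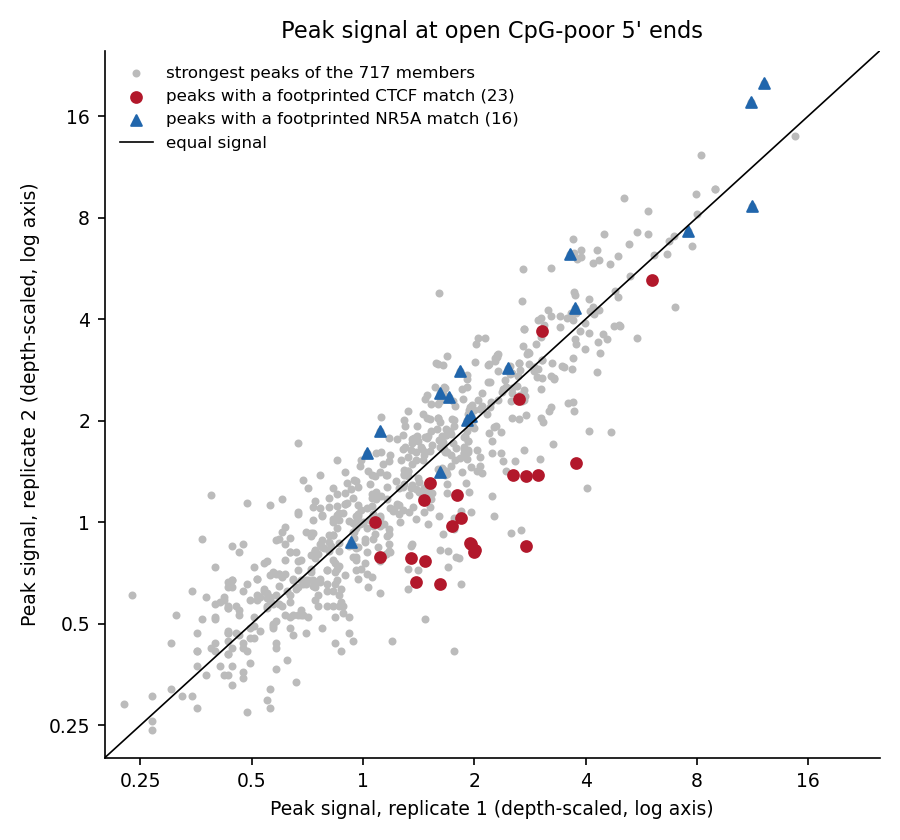
Depth-scaled peak signal in replicate 1 (x axis) and replicate 2 (y axis), both on log axes, with 1 gray point for the strongest peak of each of the 717 members and a line of equal signal. Red circles are the peaks with a CTCF match in footprints of both libraries, of which 22 of 23 lie below the line. Blue triangles are those with an NR5A match, of which 12 of 16 lie above it. Both sequences were singled out after their values were seen.

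The rule asked for a peak within 500 bp of the annotated start, so closeness was set in advance. Within that range the open stretch often lay beside the start. A peak covered the start in both libraries at 52.4% of members (376 of 717), against 70.7% of open CpG-rich ends, and in neither library at 35.1% against 18.4%. In replicate 1 the strongest peak spanned the start at 55.5% of members, lay wholly upstream at 20.9% and wholly downstream at 23.6%. In replicate 2 the shares were 56.2%, 20.5% and 23.3%. The median peak centre was at -19.5 bp in replicate 1 and -21.5 bp in replicate 2, and the centre was upstream in both libraries at 380 members and downstream in both at 265. The gap from the start to the nearest peak, taken in the library where it was larger, was up to 100 bp at 153 members, from there to 250 bp at 84, on to 400 bp at 58, and up to 500 bp at 46.

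Less of the surrounding DNA was open than at CpG-rich promoters. Within 500 bp either side of a member's start, a median of 324 bases in replicate 1 and 312 in replicate 2 had a cut rate at a false discovery rate under 0.05, against 710 and 680 at open CpG-rich ends. At the start itself, in the 20 bp bin that begins there, 72.1% and 70.9% of members had such a base, against 93.2% and 92.7%. In the bin 500 bp upstream the shares were 11% and 9.48% at members and 29.2% and 24.7% at CpG-rich ends. More than 1 peak within 500 bp was found at 17.4% and 15.8% of members and at 40.2% and 38.1% of CpG-rich ends.

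**Figure D3:**
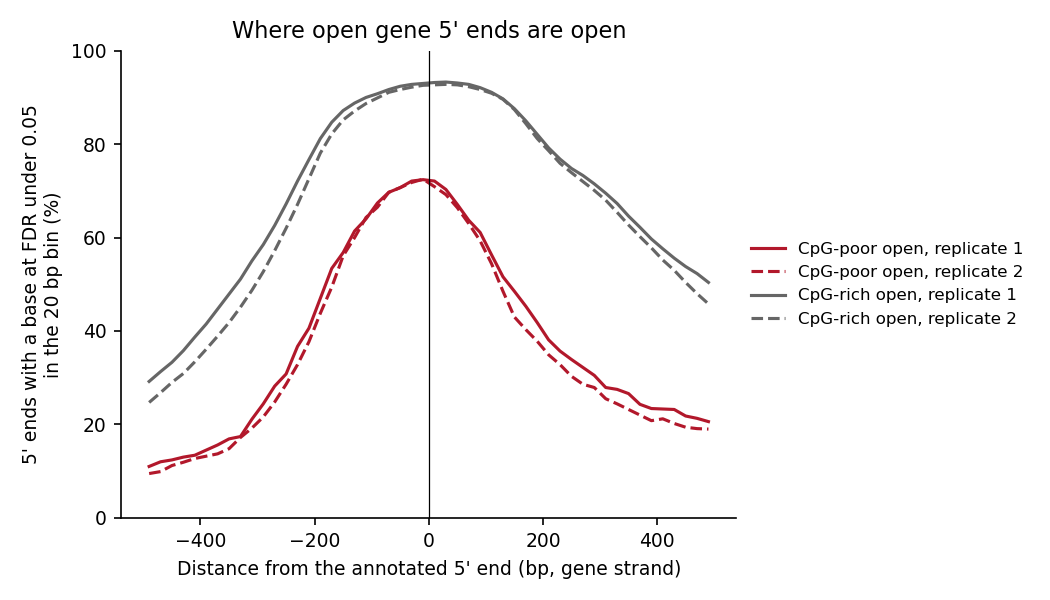
Percent of 5′ ends with at least 1 base at a false discovery rate under 0.05 in each 20 bp bin (y axis) by distance from the annotated 5′ end on the gene's strand (x axis), for members (red) and open CpG-rich ends (gray), replicate 1 solid and replicate 2 dashed. Members peak at the start at about 72.1% and fall to 11% at the upstream edge, below the CpG-rich curves over the whole window.

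The annotated 5′ end is the outermost start of a gene and need not be its main one. RefSeq listed a start for 538 members, and it lay within 5 bp of the annotated end at 222. A further annotated start of the same gene was CpG-rich at 29.4% of members and at 15% of closed ends. At 66 members (9.21%) such a start lay within 500 bp of the strongest peak. Gapdh, the glycolytic enzyme gene, is an example of a gene with both kinds of start, with 7 CpG-rich starts among 10 and a signal of 3.22 and 4.10. Another protein-coding gene started within 1 kb of 6.97% of members, 3.36% of closed ends and 22.1% of open CpG-rich ends. Ckm, the muscle creatine kinase gene, was such a case, with a peak centred at -589 and -615.5 bp, near the CpG-rich start of Klc3, and a signal of 0.807 and 1.11.

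Some members lay near other members. There were 28 members that shared their strongest replicate 1 peak with another member, as 14 pairs. After the Tmem176 pair the strongest were Bcl2l2, an anti-apoptotic gene, with the predicted gene Gm20521, at 2.73 and 3.75, and Ifitm2, an interferon-induced gene, with Gm45717, at 3.06 and 3.02. Of all members 180 (25.1%) had another within 100 kb, and 456 (63.6%) had another CpG-poor start there, open or not. Neither was counted for closed or CpG-rich ends, so this is not shown to be particular to members. Beyond the promoter, at least 1 further site shared by both libraries lay between 500 bp and 10 kb from the start at 63.5% of members, 59.8% of open CpG-rich ends and 32.7% of closed CpG-poor ends.

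Footprints were fewer per peak at members. The strongest peak held at least 1 footprint in both libraries at 82% of members and at 95.5% of open CpG-rich ends, and none in either library at 26 members. The median was 2 footprints in replicate 1 and 3 in replicate 2, or 1 and 1.25 per 100 bp, against 4 in each and 1.67 and 1.82 per 100 bp at CpG-rich ends. Of the 1608 footprints of replicate 1 at members 55.9% overlapped one of replicate 2, and of the 1907 of replicate 2 47.1% overlapped one of replicate 1, so about as many differed as were shared. At CpG-rich ends these shares were 72.8% and 67.4%. Footprint calls need cuts, and the part of the lower signal in these counts was not tested.

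None of the 5 members with most footprints was among the 15 strongest. The predicted gene Gm16253 and Nr0b2, which encodes a nuclear receptor without a DNA-binding domain, had 7 in each library. Spink4, a protease inhibitor gene, had 6 in each. Xdh, the purine-degrading xanthine dehydrogenase, and Traf3ip2, an adaptor of interleukin receptors, had 7 and 6. The signal of Gm16253 was 4.34 and 5.97, and those of the other 4 lay between 1.22 and 2.51 in replicate 2.

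A TATA box was uncommon among members. The letters TATAAA on the gene's strand, starting 40 to 15 bases before the annotated start, were found at 21 members (2.93%), at 5.81% of closed CpG-poor ends and at 0.901% of open CpG-rich ends. Where the annotated end lay within 5 bp of a RefSeq start the shares were 5.86%, 9.83% and 1.29%, in the same order. Among the 21, 6 had the box starting 30 bases before the start, the most common distance. Serpinb1a, Crybb1 and Agt, among the 5 strongest, are shown because they carry the core promoter at the usual place, from 45 bases before the start to 5 after it, with the box in capitals. For Serpinb1a the run is chr13:32851181-32851230, minus strand. For Crybb1 the run is chr5:112255770-112255819, plus strand. For Agt the run is chr8:124569702-124569751, minus strand.
Serpinb1a: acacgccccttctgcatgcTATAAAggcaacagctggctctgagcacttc
Crybb1: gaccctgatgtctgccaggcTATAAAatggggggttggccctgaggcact
Agt: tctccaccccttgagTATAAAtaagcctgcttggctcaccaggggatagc

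Serpinb1a, an inhibitor of neutrophil proteases, had a signal of 3.08 and 3.85, with the box 26 bases before the start. Crybb1, a crystallin gene known from the lens, had 2.95 and 2.70 and a peak centred upstream, at -214.5 bp. Agt, which encodes angiotensinogen, had 2.47 and 2.86, and its peak lay upstream of the box. Other members with the box were Nr0b2, Myh11, the smooth muscle myosin, Ccl7, Cxcl3, Aqp1, Vip and Ecm1. The signal of the 21 had medians of 1.38 and 1.62, near those of the other members at 1.30 and 1.21. A pyrimidine followed by a purine at the start was found at 47.8% of members, 43% of closed ends and 53% of open CpG-rich ends. Where the annotated end lay within 5 bp of a RefSeq start the shares were 50.5%, 52.9% and 57.8%, so the order of members and closed ends turned.

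Matches to 24 consensus sequences were counted on both strands without mismatch. The window was the 300 bp from 250 bases before the start to 50 after it. Each sequence is named for a factor family known to bind letters of that kind. N stands for any base, so not every match need be a preferred site of that family. Sequences without a CpG in their letters are the ones the rule did not bear on directly. The E-box CAGCTG was found at 23.6% of members, 16.8% of closed ends, 13.9% of open CpG-rich ends and 15.5% of all ends. The TEAD sequence GGAATG stood at 20.9%, 16.6%, 11.2% and 13.5% in that order, and the KLF sequence CCCCACCC at 12.7%, 6.69%, 12.3% and 10.8%. The NR5A sequence CAAGGNCA was found at 10.7% of members, 8.86% of closed ends, 4.73% of open CpG-rich ends and 6.37% of all ends. Members thus held KLF and E-box letters more often than closed CpG-poor ends, while their GC content was higher too. Their CpG ratio was also higher, with a median of 0.256 against 0.153, and the ends were matched for neither.

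Other sequences were as common or more common at closed ends. The GATA sequence AGATAA was found at 11.7% of members and 17.3% of closed ends, and the SOX sequence AACAATG at 3.07% and 6.09%. The AP-1 sequence TGANTCA stood at 10.9% and 11.3%, the C/EBP sequence TTGCNNAA at 14.1% and 15.4%, and CCAAT at 36% and 39.8%. In all ends those of GATA, SOX, AP-1, C/EBP and CCAAT stood at 9.94%, 3.26%, 6.88%, 10.6% and 38.6%. Sequences that hold a CpG are limited by the rule: the GC box GGGCGG was found at 25.2% of members, 6.78% of closed ends, 67% of open CpG-rich ends and 43.7% of all. The CTCF consensus, which can hold a CpG, was found at 1.81% of members, 0.0312% of closed ends (2 of 6402), 0.687% of open CpG-rich ends and 0.485% of all. Closed ends have no peak by the rule, so an end with an open CTCF site in its window cannot be among them. The GC box is known to be bound by SP factors, whose sites resemble the KLF sequence and can overlap it.

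The other sequences searched are given for members, closed ends and all ends, in that order. The ETS sequence AGGAAGT was found at 11.6% of members, 12.7% of closed ends and 9.29% of all ends, and its form with a CpG, CCGGAAG, which can overlap it, at 3.77%, 1.61% and 11%. The RUNX sequence TGTGGTT stood at 7.11%, 8.37% and 5.2%, and the FOX sequence TGTTTAC at 6%, 4.28% and 3.07%. The E-box of USF factors, CACGTG, stood at 6%, 2.98% and 7.82%, the CRE, TGACGTCA, at 1.12%, 0.594% and 2.43%, and the NRF1 sequence GCATGCGC at 0.418%, 0.344% and 3.45%. The STAT sequence TTCCNGGAA stood at 1.53%, 1.19% and 1.21%, the CArG box at 1.53%, 1.72% and 1.4%, and MEF2 at 1.26%, 0.812% and 0.514%. The steroid receptor sequence GNACANNNTGTNC stood at 0.976%, 0.719% and 0.409%, and the estrogen receptor sequence GGTCANNNTGACC at 0%, 0.187% and 0.0625%. These letters are not in the window of most members, which says nothing of the factors.

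**Figure D4:**
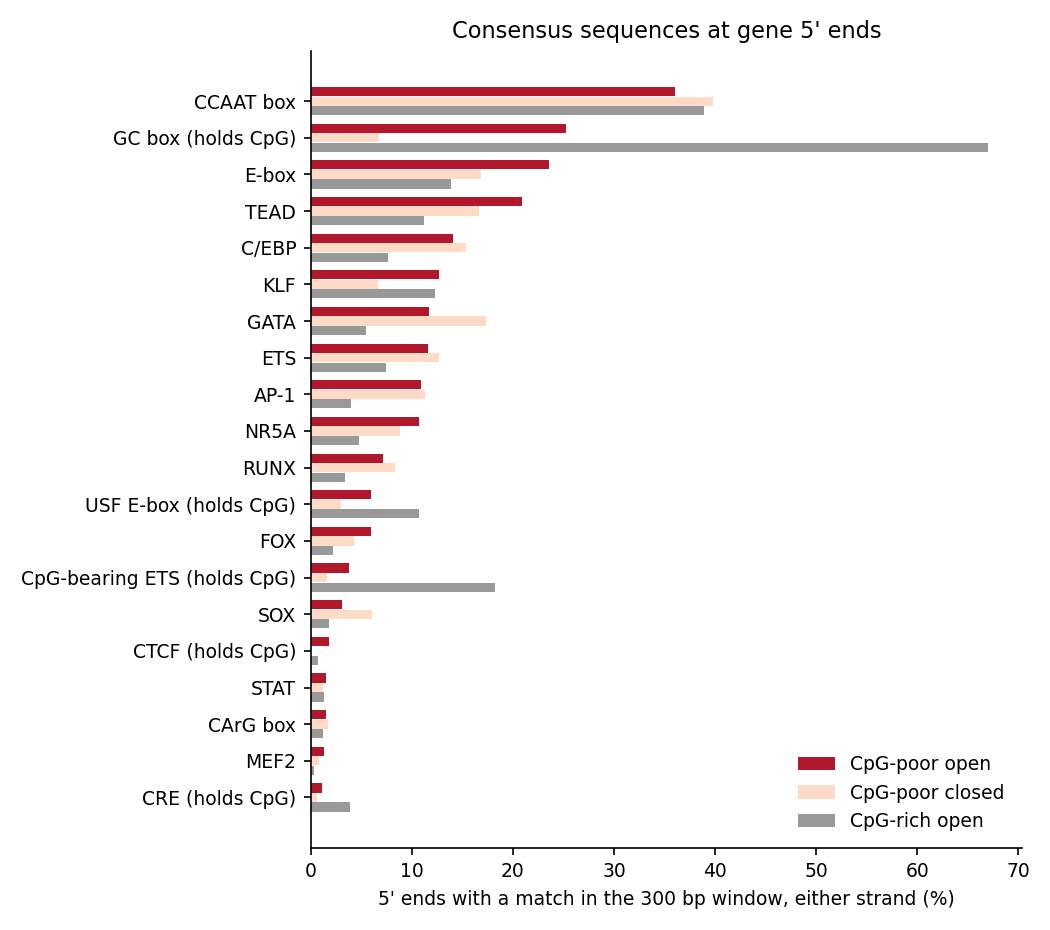
Percent of 5′ ends with at least 1 match in the 300 bp window on either strand (x axis) for each consensus sequence found at 1% or more of members (y axis), at members (red), closed CpG-poor ends (pale) and open CpG-rich ends (gray). The GC box is at 25.2%, 6.78% and 67%, and the GATA sequence at 11.7%, 17.3% and 5.49%.

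For most sequences, a minor part of the matches in peaks also lay in footprints. A match was counted when it lay inside peaks of both libraries near a member and its middle lay in a footprint of both. Of 25 CTCF matches 23 did (92%), at 23 members, and of 9 CRE matches 5 did (55.6%), as did the 1 NFI match. The share was 26.9% for the GC box, 25.9% for KLF, 20.2% for NR5A (19 of 94), 13.1% for CCAAT and 5.06% for AP-1. None of 51 GATA matches and none of 22 FOX matches did. The share of all peak bases that lies in footprints of both libraries was not counted, so these shares have no background. In the runs shown first, capitals ranged from 6 of 126 bases in Inha to 54 of 142 in Aldh3b1. The CTCF sites were not all close to the start: that of Gm11627 lay at position 560 and that of 4933415A04Rik at -507. A CTCF match in the 300 bp window was found at 13 members. Of the CTCF sites 10 are shown with 5 bases on either side, in the direction of the consensus, whose letters are in capitals. For Hsd3b7 the run is chr7:127800503-127800525, plus strand. For Arhgap22 the run is chr14:33213910-33213932, plus strand. For Aox3 the run is chr1:58112981-58113003, minus strand. For Samd9l the run is chr6:3399604-3399626, minus strand. For Trim69 the run is chr2:122160856-122160878, minus strand. For Gfap the run is chr11:102900983-102901005, plus strand. For C1ra the run is chr6:124512557-124512579, plus strand. For C1rb the run is chr6:124570215-124570237, plus strand. For Ankrd2 the run is chr19:42035509-42035531, plus strand. For Prpsap1 the run is chr11:116493994-116494016, minus strand.
Hsd3b7: actggCCACCAGGGGGCActctg
Arhgap22: aatgaCCACCAGAGGGCGctcca
Aox3: gctagCCACTAGAGGGCGttttc
Samd9l: acaaaCCAGCAGGTGGCAtagtt
Trim69: ttaggCCACCAGGGGGCAgagtc
Gfap: tagggCCACTAGATGGCAgtgct
C1ra: atggaCCACCAGATGGCAccagc
C1rb: attgaCCACCAGATGGCGccatc
Ankrd2: agcagCCACCAGAGGGCAgcagc
Prpsap1: agtgaCCAGTAGGGGGCGtgtca

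The peaks with a footprinted CTCF match were weaker in replicate 2. The signal of the peak that holds the match had a median of 1.95 in replicate 1 and 1.00 in replicate 2, and the log2 ratio had a median of -0.89 and ran from -1.70 to 0.27. That peak was the strongest of the member in both libraries at 21. It was lower in replicate 2 at 22 of 23 members, against 342 of all 717, and the exception was Ankrd2, with 3.06 and 3.70. Trim69 had 2.77 and 0.852, Arhgap22 3.77 and 1.49, and Aox3, an aldehyde oxidase gene, 2.97 and 1.38. Hsd3b7, an enzyme gene of bile acid synthesis, was the strongest, with 6.06 and 5.21. The same direction was seen at open CpG-rich ends with a footprinted CTCF match, where 70 of 83 peaks were lower in replicate 2 with a median of -0.46, while all open CpG-rich ends had a median of 0.11. CTCF was singled out after its values were seen, both libraries belong to 1 group, and what differs between them was not tested. C1ra and C1rb are near-identical neighbours and their values are uncertain.

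Peaks with a footprinted NR5A match leaned the other way. Like CTCF, NR5A was singled out after its values were seen, and its median ratio was the highest among the sequences compared at members. What differs between the libraries was not tested. There were 16 such members, and their signal had a median of 1.93 in replicate 1 and 2.61 in replicate 2, with a median log2 ratio of 0.34. It was higher in replicate 2 at 12 of 16, against 375 of all 717 members. Open CpG-rich ends with such a match were near their own background: 44 of 72 were higher in replicate 2 with a median of 0.15, against 61.7% of all open CpG-rich ends with a median of 0.11. The sites at 8 of the members are shown with 5 bases on either side, the consensus in capitals. Exoc3l, 2010003K11Rik and Cyp4f14 had 2 such matches each, overlapping in the first 2. For Tef the run is chr15:81802559-81802576, plus strand. For Gstm7 the run is chr3:107931796-107931813, plus strand. For Cyp4f13 the run is chr17:32947475-32947492, plus strand. For Aldh3b1 the run is chr19:3929807-3929824, minus strand. For Stat5a the run is chr11:100859419-100859436, minus strand. For Akr1cl the run is chr1:65032938-65032955, minus strand. For Agt the run is chr8:124569910-124569927, minus strand. For Amh the run is chr10:80805144-80805161, plus strand.
Tef: tggcaCAAGGCCAggtcc
Gstm7: aggaaCAAGGCCAgggcc
Cyp4f13: gcagcCAAGGCCAgtggg
Aldh3b1: ggagcCAAGGTCAggcac
Stat5a: ttggaCAAGGCCAggctg
Akr1cl: catctCAAGGACAacttc
Agt: taaccCAAGGCCAgccta
Amh: tccccCAAGGTCAccttt

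Amh, the anti-Müllerian hormone made by granulosa cells, carried the match at -94, at a signal of 1.11 and 1.87. Stat5a, a transcription factor of prolactin and growth hormone signalling, carried it 74 bases after the start and had 3.64 and 6.24. Tef and Gstm7 were the strongest of all members that carried it, and Tef held it 144 bases after the annotated start. Akr1cl, of the aldo-keto reductase family, had 3.75 and 4.31. Cyp4f13 was lower in replicate 2, as were Aldh3b1, Phyhd1 and Olfr433. A match is a description of letters and does not name the protein that protects it.

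Members with a GC box or a CCAAT box in a shared footprint were stronger than those without. The median signal of the 55 members with a footprinted GC box was 3.16 and 3.52, and of the 32 with a footprinted CCAAT box 2.95 and 2.24, against 1.18 and 1.13 for members without the first and 1.26 and 1.18 for members without the second. This was not so for every sequence: the 4 members with a footprinted AP-1 match had medians of 1.22 and 1.36, against 1.30 and 1.21 without, and the 2 with RUNX 1.15 and 0.805. The part of peak strength in being called a footprint was not tested. Slc27a1, a fatty acid transporter gene, was the strongest with a KLF match, at 4.30 and 6.42, and Emp1, a membrane protein gene, the strongest with an AP-1 match, at 3.07 and 1.99. Zfp457 led for the CRE, with 3.44 and 2.91, and Bak1, a pro-apoptotic gene, for the ETS sequence, with 4.95 and 3.81.

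The tissue label was set against gene lists, each read beside the 9.6% of CpG-poor ends that were open. That share was 11.8% without olfactory and vomeronasal receptor genes, and the lists were not matched to it in GC content or CpG ratio. The lists were chosen with earlier results of these data known, so their shares are no check of the tissue label. Of the granulosa list, 8 genes were CpG-poor and 5 were members, with a median signal of 2.66 and 2.83 beside 1.30 and 1.21 for all members. Inha, the inhibin alpha subunit, had 4.19 and 5.86, Nr5a1 3.65 and 4.17, Serpine2, a protease inhibitor, 2.66 and 2.83, Amhr2, the receptor of anti-Müllerian hormone, 1.47 and 2.31, and Amh 1.11 and 1.87. All 5 were higher in replicate 2. Cyp19a1, the aromatase gene, Nr5a2 and Grb14 were closed at their annotated 5′ ends. Nr5a1 and Amhr2 each have 2 further starts that are CpG-rich, none within 500 bp of the strongest peak.

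Of the theca and steroidogenic list, 3 of 7 CpG-poor genes were members. Star had 4.50 and 7.15, Cyp17a1, the enzyme that turns progestins into androgens, 1.61 and 2.28, and Aldh1a1 0.388 and 1.20. The peaks of Star and Cyp17a1 lay beside the annotated start, centred at -194.5 bp in both libraries for Star and at 171.5 and 151.5 bp for Cyp17a1. Hsd3b1 and Por were closed, as were Cyp21a1 and Cyp11b1, which are known from the adrenal. Neither of the 2 CpG-poor luteal genes, Akr1c18 and Hsd11b1, was open.

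The stroma and fibroblast list had the largest share of the 24 lists, with 7 of 10 CpG-poor genes open and a median signal of 1.23 and 0.727. Col1a1, a fibrillar collagen chain, had 1.58 and 1.88, Mgp, the matrix Gla protein, 1.23 and 1.32, and Col6a3 1.25 and 1.06. Col3a1, the chain of another fibrillar collagen, had 1.32 and 0.727. Dpt, Ogn and Dcn were weaker, from 0.431 to 0.506 in replicate 1 and from 0.524 to 0.641 in replicate 2. Lum, Col1a2, the partner chain of Col1a1, and Postn were closed. Of the smooth muscle and pericyte list 4 of 9 were members: Myh11 had 1.93 and 1.62, Lmod1 0.818 and 0.852, Acta2, smooth muscle actin, 0.797 and 0.719, and Cnn1 0.517 and 0.680. The endothelial list had 2 of 11, Cdh5, the endothelial cadherin, with 0.721 and 0.907, and Tie1, with 0.560 and 0.602. Apart from Myh11, the members of the smooth muscle and endothelial lists all lay below the medians of all members.

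Epithelial and oocyte genes gave single members. Krt7 was the 1 of 6 surface epithelium genes, with 0.463 and 0.461, and Fam183b the 1 of 3 oviduct genes, with 0.958 and 0.836. Oas1c, an oligoadenylate synthetase gene known from oocytes, was the 1 of 7 oocyte genes and had 2.97 and 2.84, with a peak over its start. Zp1, Zp2 and Figla, genes of the egg coat and its regulator, were closed. All 17 macrophage genes were CpG-poor and 0 were open in both libraries, while Cd68, Lyz2 and C1qa had a peak in 1. Genes outside that list that are also known from myeloid cells, such as Itgax, Trem2 and Cd180, were members. None of the 10 T cell genes, 7 B cell and plasma cell genes, 6 erythroid genes, 7 adipocyte genes, 11 hepatocyte genes, 8 keratinocyte genes or 3 neuronal genes that were CpG-poor was a member. Of 9 skeletal muscle genes Ckm was the only one. Muscle genes outside the list, such as Tnnt1 and Myh8, were members, as was Hp, a plasma protein gene outside the hepatocyte list. Each count thus covers the genes chosen for its list and not a cell type as a whole.

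**Figure D5:**
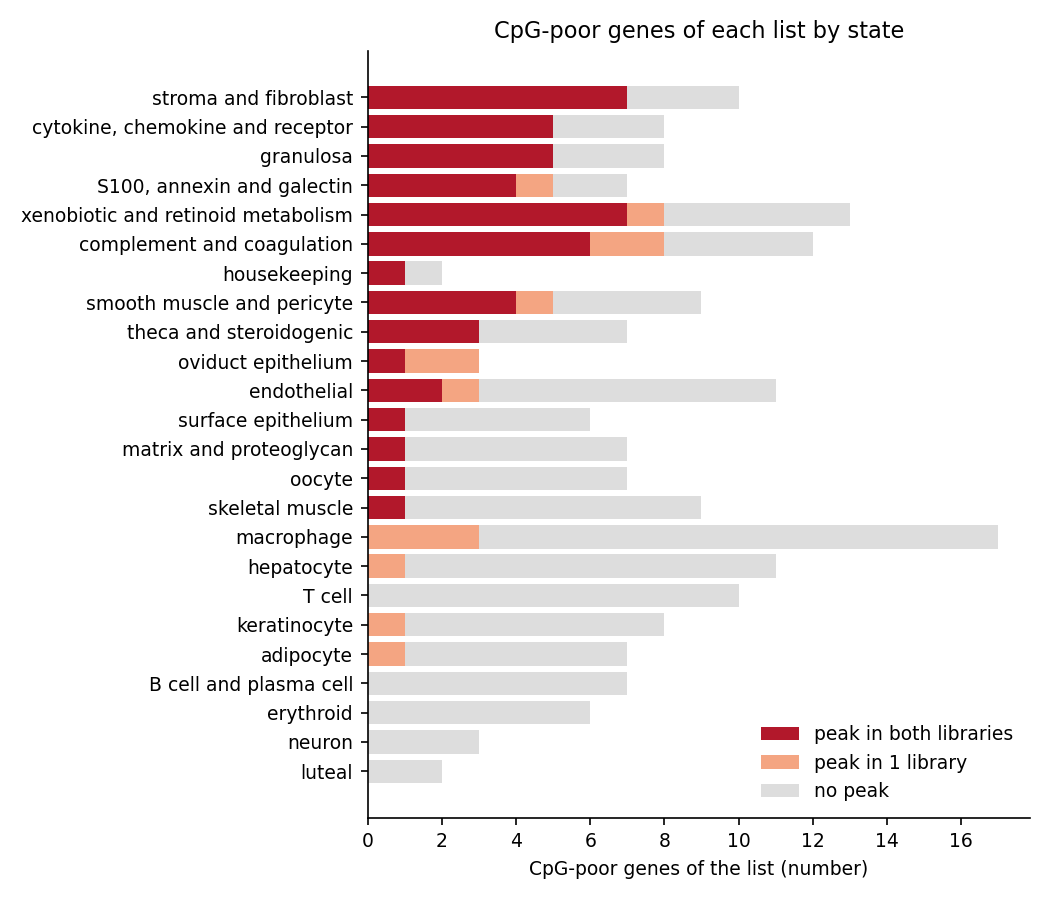
Number of CpG-poor genes of each list (x axis) with a peak within 500 bp of the annotated 5′ end in both libraries (red), in 1 library (orange) or in none (gray). Stroma and fibroblast genes lead with 7 of 10, and the macrophage list has 0 of 17.

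Lists by function were counted in the same way. Of the cytokine, chemokine and receptor list 5 of 8 CpG-poor genes were open. Il6, the inflammatory cytokine, was the strongest at 6.99 and 4.35, with a peak centred 176.5 bp downstream, and Il1r1 had 1.94 and 1.23. Il33, an alarmin of stromal and epithelial cells, had 1.64 and 1.45, and Ccl2 and Ccl7, neighbouring monocyte chemokine genes, followed. Taken by symbol, the shares were lower: 10 of 55 CpG-poor genes of interleukins and their receptors, and 3 of 40 of chemokines and theirs. Of the S100, annexin and galectin list 4 of 7 were open: Lgals1 had 4.47 and 3.62, S100a16 1.91 and 2.74, Lgals9 2.03 and 1.64, and Anxa1 was the weakest.

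Of the complement and coagulation list 6 of 12 were members. Serping1, the C1 inhibitor, had 1.87 and 1.79 and a peak centred 463.5 and 493.5 bp inside the gene. C1ra, C1s1 and C3 were also among them, and C3 had 0.850 and 1.12 in a window of 5 CpG. The xenobiotic and retinoid list had 7 of 13, led by Aldh3b1, then Gstm2 with 2.71 and 3.32 and Aox1 with 1.97 and 2.22, with Aox3, Gstt1, Ces1d and Fmo2 below. Of the matrix list, Col5a2 was the 1 of 7, with 1.46 and 1.59, while Lama2, Fmod, Prelp, Aspn, Sparc and Tnxb were closed. The CpG-poor housekeeping genes were 2, Gapdh open and Ywhaz closed at that end.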

How the data were processed

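DNase-seq of ovary was analysed for 2 libraries. Per the labels and the accompanying text files, peaks, footprints and cut rates were made from each library's own alignments to mm10 without pooling. Not given in the sources used here: aligner, callers, versions and the mapping of CAST alleles. Each deposited peak strength is a signal whose unit no label or file names; from its values it was read as scaled for depth. In the deposited peaks no p-value or q-value is filled in, and the summit column is constant, so peak centres were used. The deposited cut-rate files give a false discovery rate only for bases below 0.05, and every deposited footprint has the same p-value, 0.01, of unstated kind.

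Computations used Python 3.11.15, NumPy 2.4.6, SciPy 1.17.1 and Matplotlib 3.10.9. Genes came from GENCODE M21, sequences from assembly GRCm38 (mm10) and further starts from RefSeq. An overlap was at least 1 bp. The consensus search, the TATA search and the overlap search were tested on simulated data. The members and lists were chosen with earlier results of these data known. Named genes are the 15 strongest and 3 weakest members by mean rank, the 3 strongest of each list, the 3 extreme ratios each way, those nearest the threshold or lowest in CpG ratio, the 5 strongest with a TATA box, the 5 with most footprints, the 3 strongest pairs with a shared peak, and the strongest with each footprinted sequence. Others were chosen after their values were seen. A few items named by these rules are not reported here. The read depth is unknown, so no counting error is given. Alternatives were other CpG thresholds, windows and formulas, the shorter lists, 250 bp, other TATA rules, other footprint areas, exclusion of members near another gene, and each library left out.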

Additional observations from a re-analysis of the deposited data

How the results depend on the processing

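The number of members ran from 506 to 981 over the alternatives. The share of CpG-poor ends that were open, 9.6%, became 7.56% at a CpG threshold of 0.30, 12.1% at 0.40, 10.2% with the CpG ratio taken from 250 bp either side, 6.99% with the shorter lists, 8.21% within 250 bp and 9.29% without ends near another gene's start. It was 11.7% to 12.1% with either library left out. In 2 alternatives chosen after seeing the data it was 8.16% where every start of the gene was CpG-poor and 11.8% without olfactory and vomeronasal receptor genes. The median signal over both libraries, 1.27, became 1.17 at 0.30, 1.31 at 0.40, 1.65 with the shorter lists, 1.22 within 250 bp, and 0.99 to 1.01 with either library left out. The share with a footprint in both libraries, 82%, became 92.9% with the shorter lists and 68.1% when footprints within 250 bp of the start were counted. The share with a peak over the start, 52.4%, became 46.1% with the narrower CpG window, 61.3% within 250 bp, 57.5% where every start was CpG-poor, and 53.4% to 55.6% with either library left out. The TATA share, 2.93%, became 3.45% with the shorter lists, 4.18% with TATAA, 3.95% where every start was CpG-poor, and 2.74% to 3.42% with either library left out. Every other alternative moved these values by less than the spread between libraries. No paired analysis was possible because there is 1 group. The read depth, the mapping of CAST alleles and the choice of the outermost start limit what these values mean, and none was varied beyond the alternatives above.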

Other observations

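Families outside the lists were looked at after their values were seen, and they are given as counts of members among CpG-poor genes, beside 9.6% of all CpG-poor ends. Collagen genes had 8 of 16, guanylate-binding protein genes 5 of 9, glutathione S-transferase genes 5 of 12, aldo-keto reductase genes 5 of 13, zinc finger genes of the Zfp series 16 of 68, serpin genes 9 of 56 and cytochrome P450 genes 11 of 82. Below that share were Cd antigen genes with 6 of 69, genes of chemokines and their receptors with 3 of 40, keratin genes with 2 of 31, predicted genes of the Gm series with 28 of 867, beta-defensin genes with 1 of 41 and keratin-associated protein genes with 1 of 53. Several of these families have near-identical copies, so which copy is open is uncertain. Of the P450 members 5 were of the Cyp4f branch.

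Antigen presentation genes were also among the members, although no macrophage gene of the list was. Of the CpG-poor H2 genes 6 of 21 were open, beside 9.6% of all CpG-poor ends. H2-Aa, H2-Ab1 and H2-Eb1, which encode chains of the class II molecules, had 3.58 and 2.26, 1.84 and 0.657, and 3.70 and 2.27 in replicates 1 and 2, and Cd74, their chaperone, had 0.743 and 0.586. These 4 were lower in replicate 2, while H2-T22 had 2.64 and 2.97. Class II promoters are known for an X box followed by a Y box, which holds CCAAT on the reverse strand. The shared open parts of H2-Aa and H2-Eb1 are shown on the gene's strand, with bases in footprints of both libraries in capitals. For H2-Aa the run is chr17:34287794-34287980, minus strand. For H2-Eb1 the run is chr17:34305701-34305896, plus strand. In H2-Aa a CRE match at -74 and a CCAAT match at -48, counted from the start, both lay in a shared footprint. In H2-Eb1 the footprinted CCAAT match lay at -59. The letters are those of the C57BL/6 reference, and this region is known to differ between strains.
H2-Aa: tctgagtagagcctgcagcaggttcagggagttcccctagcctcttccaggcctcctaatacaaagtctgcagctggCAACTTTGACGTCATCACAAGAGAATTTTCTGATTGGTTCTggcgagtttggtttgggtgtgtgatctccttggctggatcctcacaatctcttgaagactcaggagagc
H2-Eb1: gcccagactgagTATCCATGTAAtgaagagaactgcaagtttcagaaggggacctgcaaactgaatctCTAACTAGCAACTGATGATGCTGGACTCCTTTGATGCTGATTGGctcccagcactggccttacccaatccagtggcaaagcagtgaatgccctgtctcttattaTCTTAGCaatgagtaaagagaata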
